A study of Mus musculus with 17 samples.

Results

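The messenger RNAs of 10 genes of myeloid growth and homing were followed in AB12 mesothelioma of the mouse: the growth factors Csf1, Il34, Csf2, Csf3 and Kitl, the receptors Csf1r, Csf2ra and Csf2rb, and the chemokine Cxcl12 with its receptor Cxcr4. They are all the genes of the count table, 10 of 55450, whose Ensembl identifier carries one of these symbols in Gencode vM21. AB12 is a single murine mesothelioma line, and every tumor in the series, treated or not, grew after its cells were injected into the peritoneum of BALB/c mice, which the methods describe as female and 8 weeks old. There were 5 groups. Untreated tumors gave 3 libraries on d6, 5 on d10 and 3 on d14. Mice given intraperitoneal anti CTLA-4 (clone 9D9, 200 µg per injection) gave 3 libraries on d10 and 3 on d14. The mice of the treated d14 group had been injected on d6 and d10. How many injections the treated d10 mice had received is not given in the sources used here. The methods give at least 3 independent mice per group. The questions the design poses are how these signals change as the tumor grows and whether blocking CTLA-4, an inhibitory receptor of T cells, changes them.

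CSF1 and IL-34 are separate ligands of one receptor tyrosine kinase, CSF1R, on which the survival of most macrophages depends. CSF2, also known as GM-CSF, binds an alpha chain encoded by Csf2ra, which signals only together with the beta chain encoded by Csf2rb, and CSF3, or G-CSF, drives neutrophil production. CXCL12 is made mainly by stromal cells and retains or attracts leukocytes that carry CXCR4, and Kitl encodes stem cell factor, the ligand of KIT on mast cells and blood progenitors. In tumors these signals are known for recruiting and shaping macrophages, neutrophils and other myeloid cells. In RNA from whole tumors, a lower level can mean fewer cells of the type that expresses a gene or less RNA per cell, and these cannot be told apart.

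The positions below are those of GRCm38, and only Csf2 and Csf3 share a chromosome. Csf1 (ENSMUSG00000014599.10) is at chr3:107741048-107760469, Il34 (ENSMUSG00000031750.15) at chr8:110741829-110805924, Kitl (ENSMUSG00000019966.18) at chr10:100015630-100100416, Cxcr4 (ENSMUSG00000045382.6) at chr1:128588199-128592293 and Cxcl12 (ENSMUSG00000061353.11) at chr6:117168535-117181367. Csf2 (ENSMUSG00000018916.5) is at chr11:54247271-54249667, Csf3 (ENSMUSG00000038067.2) at chr11:98701263-98703629, Csf2ra (ENSMUSG00000059326.7) at chr19:61223957-61228429 and Csf2rb (ENSMUSG00000071713.6) at chr15:78325752-78353847. Csf1r (ENSMUSG00000024621.16) is at chr18:61100598-61132149. All are annotated as protein coding. The values are sums of reads over exons.

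For 4 members sequence is shared with another gene. Of the 7243 distinct 75-base windows of the Csf2rb transcripts, 518 (7.15%) also occur in Csf2rb2, a near-identical paralog next to it, so the Csf2rb count is uncertain to the extent that reads there were dropped as not unique. Exons of Csf2rb also overlap the microRNA gene Mir7676-2 on the same strand over 62 bases. Exons of Csf1r overlap those of Hmgxb3 on the opposite strand over 873 bases, and 799 of its 5751 windows (13.9%) are found there. Csf2 overlaps the antisense gene Gm12223 over 96 bases, with 23 of 726 windows (3.17%) shared. Exons of Il34 overlap the antisense genes Gm15895 over 75 bases and Gm15894 over 22 bases, with 1 of 2024 windows (0.0494%) shared with Gm15895. Whether counting used strand is not given in the sources used here, so reads from overlapping exons on opposite strands cannot be assigned for these genes.

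Total counts per library ranged from 46371577 to 96759833 with a median of 72413343, and all 10 members passed the low-count filter in every comparison. The tumors carried RNA of macrophages, mesothelial cells and fibroblasts. Summed over 10 macrophage markers, CPM (counts relative to the normalized total of their library) lay between 1267 and 4954 across the 17 libraries. Over 7 mesothelial markers they lay between 1824 and 4186, and over 8 fibroblast markers between 1673 and 5570. Some libraries stood apart. Untreated d10 replicates 4 and 5 had mitochondrial shares of counts of 0.880% and 0.895%, against 1.38% to 1.95% in replicates 1 to 3 of that group. The share also differed between groups, at 1.52% to 2.02% in d6, 1.17% to 1.39% in untreated d14, 0.576% to 0.969% in treated d10 and 1.31% to 1.36% in treated d14 tumors. Treated d10 tumors thus lay below untreated d10 replicates 1 to 3 and overlapped replicates 4 and 5, and untreated d14 tumors lay below d6 tumors. The part of this share in the comparisons between these groups was not tested. The 95% Wilson interval of each share, which covers counting error only, was within 0.0041 percentage points of it in every library. Other shares of counts separated untreated from treated d14 tumors without overlap. Pseudogenes held 0.652% to 0.695% in untreated and 0.529% to 0.577% in treated d14 tumors. Small RNA genes held 0.058% to 0.074% and 0.096% to 0.129%. The part of these shares in the d14 comparison was not tested. Untreated d10 replicate 4, which had the highest untreated Cxcl12 and Cxcr4, also had the highest sums of B cell markers, at 168.8 CPM against 31.0 to 86.1 CPM elsewhere, and of red blood cell markers, at 89.9 CPM against 12.8 to 54.6 CPM. The part of these cells was not tested. Without that library the log2 treatment effect on d14 minus that on d10 was 1.91 for Cxcl12 (adjusted p = 0.0055, edgeR) and 1.01 for Cxcr4 (adjusted p = 0.044). Pancreas acinar markers summed to 2874 and 960 CPM in treated d14 replicates 1 and 3 and to 1.37 CPM in replicate 2, and did not exceed 0.133 CPM in any other library. The methods name 2 sequencing instruments with different read lengths, and which library was run on which is not given in the sources used here. The methods also say that genes with a significant batch effect between sequencing projects were removed. No such filter was applied here, and the part of sequencing project in these results was not tested.

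Compared per kilobase of exon, Csf1r was the most abundant member in 4 of the 5 groups. Its mean ran from 27.0 CPM per kilobase in untreated d14 tumors to 72.9 CPM per kilobase in treated d14 tumors. Csf1 followed with means between 24.8 and 35.98 CPM per kilobase and exceeded Csf1r only on d6. The other ligand of that receptor, Il34, was lower, at means between 6.81 and 10.98 CPM per kilobase, so that Csf1 exceeded Il34 in every library, by a ratio of 2.17 to 6.24. Kitl had means between 7.47 and 12.4 CPM per kilobase and Csf2 between 3.68 and 7.48. Csf3 was the scarcest, with 13 to 100 counts in a library and at most 1.27 CPM.

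**Figure D1:**
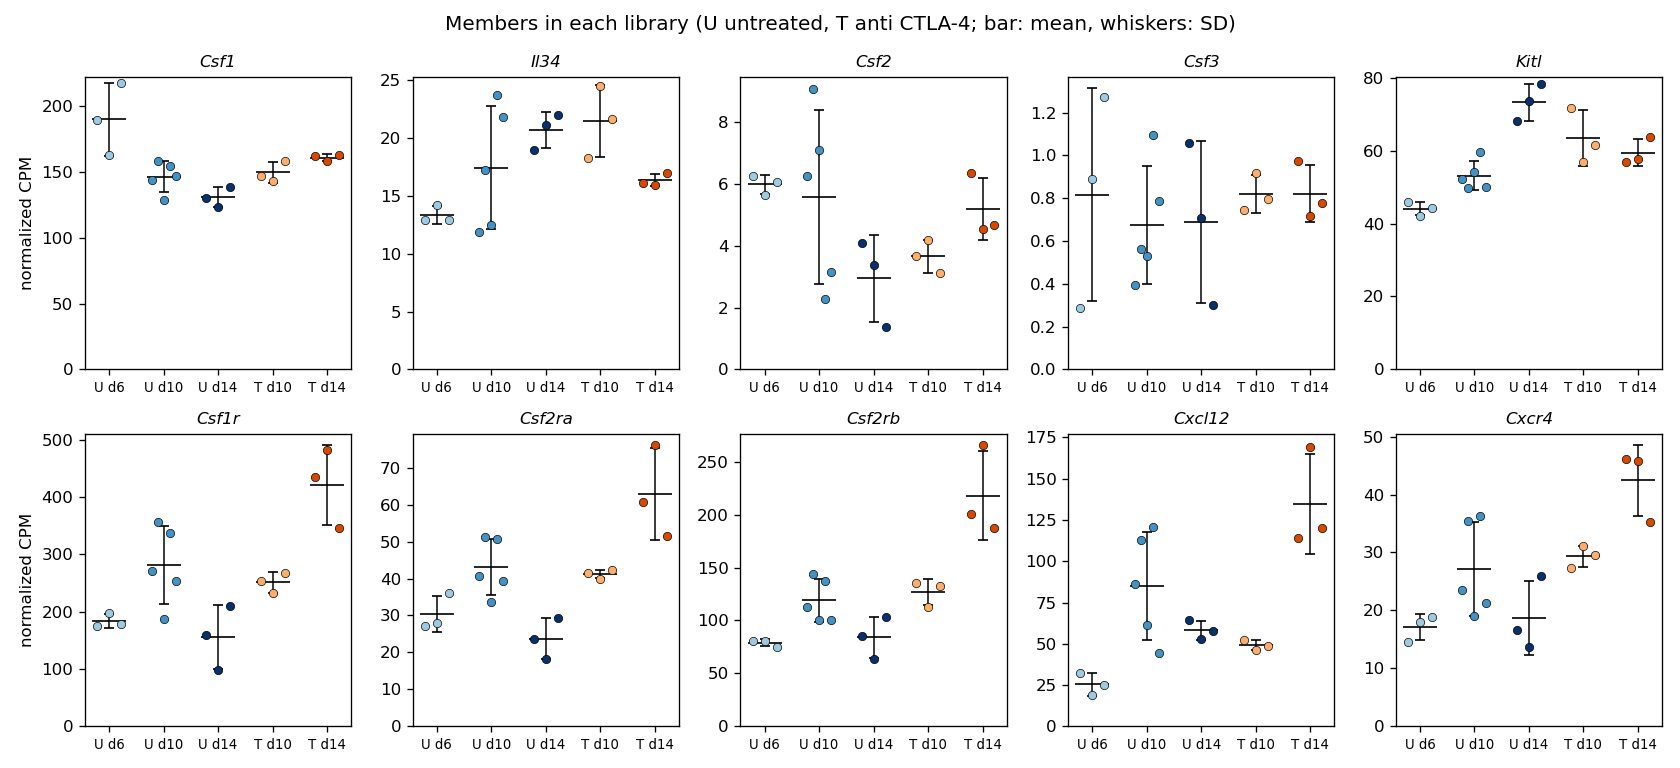
Normalized CPM (vertical axes, from 0) of the 10 members in each of the 17 libraries, by group (U untreated, T anti CTLA-4), with the mean as a bar and the SD as whiskers. For Csf2ra and Csf2rb the treated d14 libraries lie above all others, and Csf3 stays at or under 1.27 CPM in all libraries.

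Treated and untreated tumors differed in most members on d14. Of the 10 members, 6 were higher in treated tumors and 1 was lower at an adjusted p below 0.05 (edgeR quasi-likelihood test, Benjamini-Hochberg over all genes). Among all 18062 genes tested, 17.7% were higher and 14.8% lower. The median log2 fold change was 1.07 over the members and -0.0043 over all genes. The members that rose were the 3 receptors Csf1r, Csf2ra and Csf2rb, the pair Cxcl12 and Cxcr4, and the ligand Csf1. Il34 fell.

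The same test on d10 gave no call. With 3 treated and 5 untreated tumors, edgeR called 0 of 10 members, and 2 of 10 had an unadjusted p below 0.05. This depended on the fit. Cxcl12 passed with a replicate block (-0.81 on the log2 scale) and with untreated d10 replicates 1 to 3 only (-0.83). Csf2 and Il34 also passed there, at -1.05 and 0.61 in both fits. In these fits 5442 and 5020 of all genes passed. Untreated d10 replicates 4 and 5 have no treated d10 library of their number, so both fits compare replicates 1 to 3. That set falls where Csf2 and Il34 separate, so the passing of these 2 genes is not a test. In the main fit 0.0174% of all 17258 genes were higher and 0% lower, although 2329 had an unadjusted p below 0.05. DESeq2 called 463 genes and again 0 members. The log2 fold changes of the receptors on d10 were -0.16 ± 0.18 (SE) for Csf1r, -0.07 ± 0.14 for Csf2ra and 0.09 ± 0.14 for Csf2rb. That the effect of treatment differed between the days was tested as an interaction of treatment and day. It passed for 5 members with a positive value and for Kitl with a negative one, against 11.9% and 5.85% of the 18574 genes tested.

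In untreated tumors, 3 members were higher and 1 lower on d10 than on d6, where 10.5% of 16866 genes were higher and 7.03% lower. From d10 to d14, 1 member was higher and 2 were lower, beside 9.80% and 9.87% of 17659 genes. Between d6 and d14, 3 were higher and 2 lower, beside 25.5% and 26.0% of 17172 genes. In treated tumors from d10 to d14, 6 were higher and 1 was lower, beside 23.3% in each direction of 17791 genes. These comparisons share groups and are not independent of each other.

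**Figure D2:**
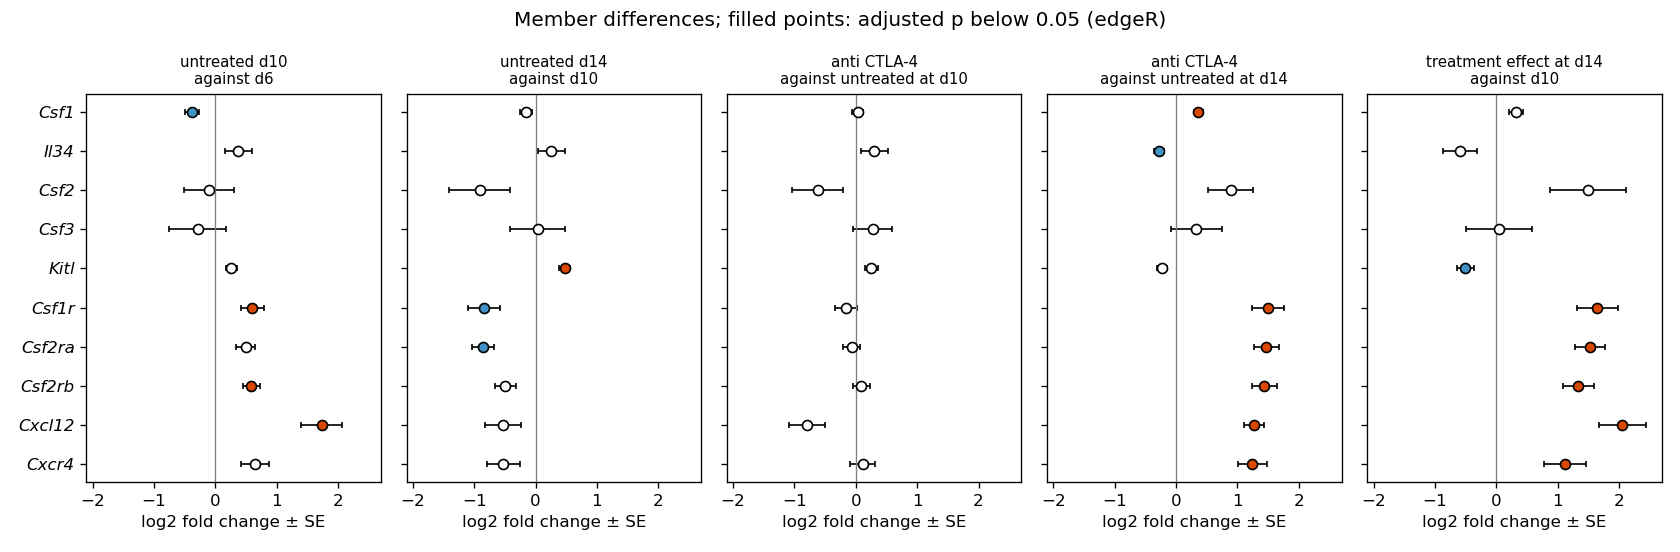
Log2 fold change with SE (horizontal axes) of the 10 members in 4 group comparisons and in the interaction of treatment and day, with points filled where the adjusted p was below 0.05. On d14 the points of Csf1r, Csf2ra, Csf2rb, Cxcl12 and Cxcr4 lie between 1.24 and 1.496, and on d10 none is filled.

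Csf1, the ligand that most macrophages need, had its highest group mean on d6. Its level was 189.9, 163 and 217 CPM on d6, 144, 158, 128, 155 and 147 CPM on d10 and 130.2, 123 and 139 CPM on d14 without treatment. The d6 libraries lay above all d10 libraries. The difference of d10 from d6 was -0.38 ± 0.11 on the log2 scale (adjusted p = 0.043, edgeR), and of d14 from d6 it was -0.54 ± 0.11 (adjusted p = 0.0033). The first of these passed in 1 of 8 fits with a library left out, the one without untreated d6 replicate 2, and its adjusted p was up to 0.18 in the others. The second passed in all 6 such fits.

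Treated tumors held 147, 143 and 158 CPM of Csf1 on d10 and 162, 158 and 163 CPM on d14. On d10 these overlap the untreated range, while on d14 they lie above every untreated d14 library. Csf1 rose 1.29-fold with treatment on d14 (log2 0.37 ± 0.07, adjusted p = 0.0098), with an adjusted p of at most 0.041 when any single library was left out. The interaction did not pass for Csf1 (log2 0.32 ± 0.11, adjusted p = 0.060).

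Il34, the second ligand of CSF1R, had its lowest group mean on d6. Without treatment it was 12.9, 14.2 and 12.9 CPM on d6 and 18.97, 21.1 and 21.99 CPM on d14, which do not overlap, and it rose 1.55-fold between them (log2 0.64 ± 0.11, adjusted p = 0.0014). On d10 the untreated libraries split into 11.9, 17.3, 12.5, 23.8 and 21.8 CPM, with replicates 4 and 5 above the other 3. Treated tumors held 18.3, 24.6 and 21.7 CPM on d10 and 16.1, 15.98 and 16.97 CPM on d14. On d14 every treated library lay below every untreated one, a difference of -0.27 ± 0.08 (adjusted p = 0.040). It passed in 1 of 6 other settings and in none of the 6 fits that left out 1 library (adjusted p 0.055 to 0.20). Within treated tumors Il34 fell by 0.33 ± 0.10 from d10 to d14 (adjusted p = 0.022), a call kept in 2 of 6 such fits, without treated d10 replicate 1 or treated d14 replicate 3.

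The ratio of Csf1 to Il34 per kilobase had a mean of 5.32 ± 1.005 (SD, n = 3) on d6, 2.35 ± 0.19 (n = 3) on d14 without treatment and 3.65 ± 0.09 (n = 3) in treated d14 tumors. The ranges of these 3 groups do not overlap, at 4.25 to 6.24, 2.17 to 2.55 and 3.56 to 3.73, but the untreated d10 range of 2.41 to 4.47 overlaps each of them and the treated d10 range of 2.17 to 2.99 overlaps that of untreated d14. No test was run on the ratio. The ratio of Csf1 to its receptor Csf1r was 1.14 ± 0.22 on d6, 0.590 ± 0.108 (n = 5) on d10, 0.996 ± 0.340 on d14, 0.652 ± 0.022 in treated d10 and 0.427 ± 0.080 in treated d14 tumors.

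Csf1r, the receptor for both ligands, was 176, 198 and 178 CPM on d6, 272, 357, 187, 337 and 254 CPM on d10 and 160.0, 98.05 and 209.9 CPM on d14 in untreated tumors. Levels varied most on d10 and d14, and untreated d14 replicate 2 was the lowest of all libraries. It rose from d6 to d10 by 0.60 ± 0.18 (log2, adjusted p = 0.049) and fell from d10 to d14 by 0.84 ± 0.26 (adjusted p = 0.047). Both calls were close to the threshold. The first held in 1 of 8 fits with a library left out, without untreated d10 replicate 3 (adjusted p = 0.0083), and the second in 2 of 8, without untreated d10 replicate 3 or untreated d14 replicate 3. Markers of T cells rose from d6 to d10 and fell to d14, as did the untreated group means of Csf1r, Csf2ra, Csf2rb, Cxcr4 and Cxcl12. The sums over 6 T cell markers were 43.2 to 47.6 CPM on d6, 181 to 258 CPM on d10 and 72.4 to 134 CPM on d14. Of these 6 markers 5 were higher on d10 than on d6, beside 10.5% of all genes, and 6 were lower on d14 than on d10, beside 9.87%. Of 10 macrophage markers, 3 were higher and 6 lower in the same comparisons. Between d6 and d14, 4 T cell markers were higher and 1 was lower, beside 25.5% and 26.0% of all genes. Csf1r and Csf2ra did not pass there, at -0.24 ± 0.22 and -0.36 ± 0.17. The part of these cells in the results of these members was not tested.

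In treated tumors Csf1r was 254, 232 and 268 CPM on d10, inside the untreated range, and 436, 482 and 346 CPM on d14, above every untreated d14 library. The difference on d14 was 2.82-fold (log2 1.496 ± 0.26, adjusted p = 0.0078), and it stayed between 1.24 and 1.80 on the log2 scale, passing each time, when 1 library was left out. The interaction was 1.65 ± 0.34 (adjusted p = 0.0067) and passed in all 14 such fits. From d10 to d14 under treatment Csf1r rose by 0.81 ± 0.12 (adjusted p = 0.0013), where in untreated tumors it fell.

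Csf2, the GM-CSF gene, was expressed at low levels, from 136 to 652 counts per library. It measured 6.26, 5.65 and 6.05 CPM on d6, 6.25, 9.07, 7.10, 2.28 and 3.15 CPM on d10 and 4.08, 3.39 and 1.36 CPM on d14 without treatment. All 3 d14 libraries were below all d6 libraries, and Csf2 fell between them by 1.02 ± 0.35 (log2, adjusted p = 0.035). That call was lost without untreated d6 replicate 1, 2 or 3 (adjusted p 0.064 to 0.089). The treated levels were 3.66, 4.18 and 3.12 CPM on d10 and 6.35, 4.54 and 4.69 CPM on d14. On d14 all treated libraries were above the untreated ones, with a log2 difference of 0.89 ± 0.37 that did not pass (adjusted p = 0.099) in edgeR and passed in DESeq2 (adjusted p = 0.029). Within treated tumors Csf2 rose from d10 to d14 by 0.57 ± 0.18 (adjusted p = 0.027), a call that was lost without treated d10 replicate 1 or 3 or treated d14 replicate 1 (adjusted p 0.059 to 0.099).

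The untreated d10 tumors gave 2 different readings for Csf2 and Il34. Replicates 1 to 3 had 6.25 to 9.07 CPM of Csf2, and replicates 4 and 5 had 2.28 and 3.15 CPM. This division of the untreated d10 tumors was chosen with earlier results of these data known and falls where Csf2 and Il34 separate. The values of these genes within it are therefore given as descriptions, and their passing in such fits is not read as a test. Against d6, the first set differed in Csf2 by 0.34 on the log2 scale and the second by -1.19. Against treated d10 tumors, treated minus untreated was -1.05 with replicates 1 to 3 and 0.45 with replicates 4 and 5. For Il34 the same comparison gave 0.61 with replicates 1 to 3 and -0.06 with replicates 4 and 5. The interaction for Csf2 was 1.93 and for Il34 -0.89 with replicates 1 to 3. With replicates 4 and 5 it was 0.43 and -0.22, and over all libraries it was 1.49 ± 0.62 (adjusted p = 0.11) and -0.59 ± 0.28 (adjusted p = 0.15).

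These sets are the ones that differ in mitochondrial share. Across the 17 libraries, log2 CPM of Il34 and the mitochondrial percentage had a Pearson r of -0.90, and Csf2 an r of 0.59. The points share groups, so these are descriptions. The r was -0.46 for Kitl, -0.45 for Csf3, -0.42 for Cxcr4 and 0.24 for Csf1, and it lay between -0.25 and -0.14 for Csf1r, Csf2ra, Csf2rb and Cxcl12. The part of the mitochondrial share in the results of these members was not tested.

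**Figure D3:**
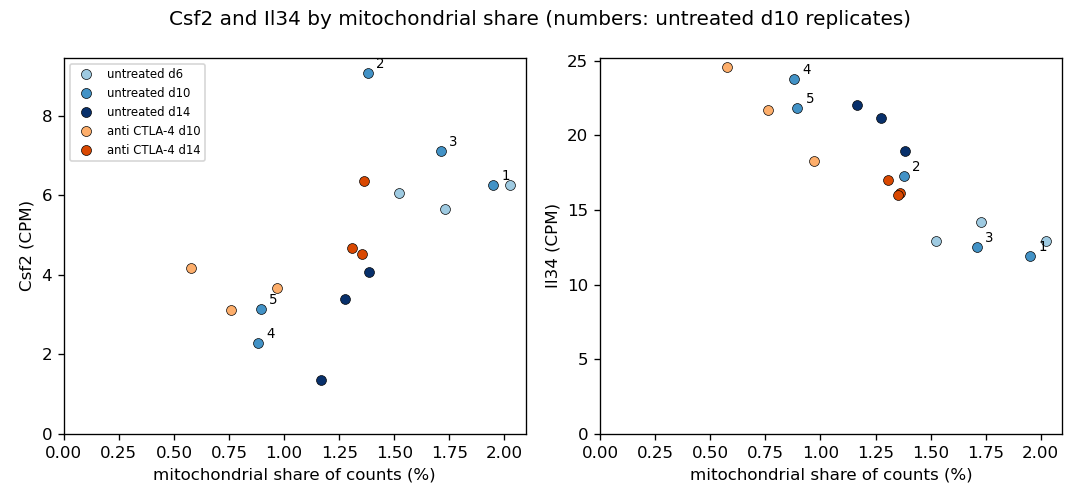
Csf2 (left) and Il34 (right) in normalized CPM against the mitochondrial share of counts in percent, 1 point per library, with the untreated d10 replicates numbered. Replicates 4 and 5 lie at 0.880% and 0.895% with Csf2 at 2.28 and 3.15 CPM, and Il34 is higher where the share is lower.

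Csf2ra and Csf2rb encode the chains of the GM-CSF receptor, and the beta chain also serves the receptors of IL-3 and IL-5. Csf2ra was 27.2, 27.9 and 36.02 CPM on d6, 40.8, 51.3, 33.6, 50.7 and 39.4 CPM on d10 and 23.6, 18.2 and 29.3 CPM on d14 without treatment. The d10 and d14 ranges do not overlap, and Csf2ra fell between them by 0.85 ± 0.18 (log2, adjusted p = 0.014). Its difference of d10 from d6 was 0.50 ± 0.16 (adjusted p = 0.054). The fall to d14 did not pass without untreated d14 replicate 1 (adjusted p = 0.053) or 2 (adjusted p = 0.072).

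With treatment Csf2ra was 41.4, 39.9 and 42.2 CPM on d10 and 60.7, 76.2 and 51.6 CPM on d14. The treated d14 libraries lay above every other library. Against untreated d14 tumors Csf2ra rose 2.77-fold (log2 1.47 ± 0.20, adjusted p = 0.0051), with an interaction of 1.53 ± 0.25 (adjusted p = 0.0036).

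Csf2rb was 80.98, 80.6 and 75.1 CPM on d6, 113, 144, 100.3, 138 and 100.2 CPM on d10 and 85.2, 64.03 and 103 CPM on d14. All d10 libraries exceeded the d6 libraries, and it rose 1.5-fold (log2 0.59 ± 0.14, adjusted p = 0.017), a call lost without untreated d6 replicate 1, 2 or 3 (adjusted p 0.062 to 0.080). Treated tumors held 135, 113 and 133 CPM on d10 and 201, 266 and 187 CPM on d14, the latter again above every other library. The rise with treatment on d14 was 2.71-fold (log2 1.44 ± 0.20, adjusted p = 0.0051) and the interaction 1.33 ± 0.25 (adjusted p = 0.0051). The paralog Csf2rb2 rose by 1.502 ± 0.25 (adjusted p = 0.0068) in the same comparison, so both copies had the same direction.

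Per kilobase, the mean ratio of Csf1r to Csf2ra was 3.03 to 3.35 in the 5 groups. The ratio of Csf2rb to Csf2ra was not as even, at 0.823 to 1.18 in the untreated d6 and d10 libraries and 1.39 to 1.43 in untreated d14 libraries, which do not overlap. Treated d10 libraries, at 1.11 to 1.29, overlap the first of these ranges. Treated d14 libraries, at 1.31 to 1.43, overlap the second. Across the 17 libraries the Pearson r of log2 CPM was 0.97 between Csf1r and Csf2ra, 0.93 between Csf1r and Csf2rb and 0.93 between Csf1r and Cxcr4. Between Csf1 and its receptor Csf1r it was 0.25, and between Csf2 and Csf2ra 0.17. These values are descriptions over libraries that share groups.

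Csf3, the neutrophil growth factor, did not pass in any of the 7 comparisons. It was 0.287, 0.889 and 1.27 CPM on d6 and 1.06, 0.709 and 0.301 CPM on d14 without treatment and 0.974, 0.716 and 0.776 CPM in treated d14 tumors. These groups overlap, the d6 replicates spanned 13 to 63 counts, and the SE of its log2 differences was 0.22 to 0.56, and the cause of that spread was not tested. The receptor gene Csf3r, by contrast, rose in treated d14 tumors by 1.38 ± 0.22 (adjusted p = 0.0067). Of 8 neutrophil markers 2 were higher in that comparison, beside 17.7% of all genes.

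Cxcl12, the stromal chemokine, rose after d6. It was 32.6, 18.8 and 25.1 CPM on d6, 85.9, 113, 61.1, 121 and 44.7 CPM on d10 and 64.3, 52.9 and 57.8 CPM on d14 without treatment. No d6 library reached any later one. It rose 3.32-fold from d6 to d10 (log2 1.73 ± 0.33, adjusted p = 0.0071) and 2.29-fold from d6 to d14 (log2 1.20 ± 0.18, adjusted p = 0.00077), and both calls passed whichever library was left out. The spread on d10 was wide, from 44.7 to 121 CPM.

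With treatment Cxcl12 was 52.3, 46.4 and 48.5 CPM on d10 and 114, 169 and 120.4 CPM on d14. On d14 all treated libraries exceeded the untreated ones, and Cxcl12 rose 2.42-fold (log2 1.27 ± 0.16, adjusted p = 0.0049). On d10 the difference was -0.79 ± 0.29, which did not pass (adjusted p = 0.31). It was -0.83 with untreated d10 replicates 1 to 3 alone, where it passed, and -0.73 with replicates 4 and 5 alone, where it did not. The interaction of 2.05 ± 0.39 (adjusted p = 0.0050) was the largest among the members and passed in all 14 fits with a library left out. Within treated tumors Cxcl12 rose from d10 to d14 by 1.52 ± 0.15 (adjusted p = 0.00033).

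Cxcr4, the receptor of CXCL12 on leukocytes, was 14.6, 17.96 and 18.9 CPM on d6, 23.5, 35.4, 19.1, 36.2 and 21.3 CPM on d10 and 16.6, 13.7 and 25.9 CPM on d14. No untreated comparison passed, with log2 differences of 0.65 ± 0.22 for d10 against d6 (adjusted p = 0.071) and -0.52 ± 0.27 for d14 against d10 (adjusted p = 0.18). Treated tumors held 27.3, 31.1 and 29.6 CPM on d10 and 46.2, 45.8 and 35.3 CPM on d14. The d14 values were above all untreated d14 libraries, a 2.37-fold rise (log2 1.24 ± 0.23, adjusted p = 0.0090) that passed whichever library was left out (adjusted p at most 0.041). The interaction of 1.12 ± 0.34 passed (adjusted p = 0.036), but in only 6 of 14 fits with a library left out. It was lost without untreated d10 replicate 2, untreated d14 replicate 1 or 2, any treated d10 replicate, or treated d14 replicate 1 or 2 (adjusted p 0.058 to 0.11). Ackr3, the second receptor of CXCL12, which takes the chemokine up, fell in treated d14 tumors by 0.60 ± 0.19 (adjusted p = 0.044).

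Csf2ra, Cxcl12 and Cxcr4 rose with treatment on d14, and the 250 bases before their RefSeq start (GRCm38.p6) are shown, with capitals where 1 of 6 short motifs matched on either strand. Of the 10 members, 6 had such a window, and these 3 were picked with the results known. Csf1, which also rose, Csf2 and Kitl have windows that are not printed. The windows are Csf2ra at chr19:61228419-61228668 (minus strand), Cxcl12 at chr6:117168285-117168534 (plus strand) and Cxcr4 at chr1:128592300-128592549 (minus strand), each written 5′ to 3′ toward the start.
Csf2ra: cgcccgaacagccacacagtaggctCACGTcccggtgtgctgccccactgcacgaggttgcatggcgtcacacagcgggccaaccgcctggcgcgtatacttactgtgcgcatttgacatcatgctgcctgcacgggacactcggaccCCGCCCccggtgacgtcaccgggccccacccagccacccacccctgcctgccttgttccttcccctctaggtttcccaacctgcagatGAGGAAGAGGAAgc
Cxcl12: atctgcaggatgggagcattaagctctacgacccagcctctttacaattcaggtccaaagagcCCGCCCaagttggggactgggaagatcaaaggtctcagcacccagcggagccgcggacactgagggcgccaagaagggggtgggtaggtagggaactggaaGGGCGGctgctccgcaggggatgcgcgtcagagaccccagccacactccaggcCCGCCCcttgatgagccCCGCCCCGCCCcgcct
Cxcr4: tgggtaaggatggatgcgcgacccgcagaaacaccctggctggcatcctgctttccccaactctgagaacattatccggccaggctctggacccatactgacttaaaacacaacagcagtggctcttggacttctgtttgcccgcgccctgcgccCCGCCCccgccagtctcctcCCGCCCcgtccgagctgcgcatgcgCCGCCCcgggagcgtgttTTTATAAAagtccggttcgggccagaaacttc
The motifs searched were GAGGAA (an ETS core bound by the myeloid factor PU.1), ACGTG (the hypoxia response core), TGANTCA (AP-1), TTGCNNAA (C/EBP), GGGCGG (the GC box) and TATAAA (the TATA box). Csf2ra held 2 adjacent GAGGAA, at 14 to 9 and 8 to 3 bases before the RefSeq start, with 1 ACGTG and 1 GGGCGG. The Gencode gene reaches chr19:61228429, so the GAGGAA nearest the RefSeq start lies inside it and the other lies partly inside. Cxcl12 held 5 GGGCGG, of which the last 2 overlap by 1 base. Cxcr4 held 3 GGGCGG and 2 overlapping TATAAA about 30 bases before the start. Among 27025 RefSeq promoters of this length, 23.1% held GAGGAA, 16.6% ACGTG, 6.87% TGANTCA, 9.55% TTGCNNAA, 32.9% GGGCGG and 13.0% TATAAA. All 6 windows, those of Csf1, Csf2 and Kitl included, held GGGCGG, which so does not set apart the members that rose. A match is a run of letters, not a shown binding site.

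Kitl, which encodes stem cell factor, was highest in untreated d14 tumors. It was 45.9, 42.2 and 44.4 CPM on d6, 52.3, 49.9, 54.3, 59.6 and 49.98 CPM on d10 and 68.1, 73.6 and 78.2 CPM on d14, and the 3 ranges do not overlap. It rose from d10 to d14 by 0.47 ± 0.09 (log2, adjusted p = 0.012) and from d6 to d14 1.66-fold (log2 0.73 ± 0.08, adjusted p = 0.00020), while its difference of d10 from d6 was 0.26 ± 0.09 (adjusted p = 0.078). The call from d10 to d14 was lost without untreated d14 replicate 2 (adjusted p = 0.062).

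Treated tumors held 71.8, 56.98 and 61.5 CPM of Kitl on d10 and 56.9, 57.8 and 63.7 CPM on d14. On d14 every treated library was below every untreated one, with a log2 difference of -0.24 ± 0.08 that did not pass (adjusted p = 0.058) in edgeR and passed in DESeq2 (adjusted p = 0.041). The interaction was -0.50 ± 0.14 (adjusted p = 0.026), the only negative one among the members that passed. It was lost without untreated d14 replicate 2 or 3, treated d10 replicate 1, or treated d14 replicate 1 or 2 (adjusted p 0.052 to 0.075). Kit, its receptor gene, rose in treated d14 tumors by 0.58 ± 0.11 (adjusted p = 0.0092).

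Receptor levels were set beside those of macrophage markers. The summed level of the markers was 2507 to 2717 CPM on d6, 3199 to 4954 CPM on d10, 1267 to 2363 CPM on d14, 2903 to 3520 CPM in treated d10 and 3564 to 4349 CPM in treated d14 tumors, and 9 of the 10 markers rose in treated against untreated d14 tumors, beside 17.7% of all genes. Between untreated d6 and d14, 6 of the 10 fell and 0 rose, beside 26.0% and 25.5% of all genes, with a list median of -0.97. The differences of Csf2rb and Cxcr4 were 0.09 ± 0.15 and 0.13 ± 0.22. Those of Csf1r and Csf2ra were -0.24 ± 0.22 and -0.36 ± 0.17. None of these receptor differences passed. Over 17 libraries the r with summed fibroblast markers was 0.88 for Csf1r, 0.85 for Csf2ra, 0.80 for Csf2rb and 0.72 for Cxcr4. With summed T cell markers it was 0.69, 0.68, 0.73 and 0.74 in the same order. With the macrophage sum it was 0.87 for Csf1r, 0.88 for Csf2ra, 0.73 for Csf2rb and 0.77 for Cxcr4. Only for Csf2ra and Cxcr4 did the macrophage sum give a higher r than fibroblast markers. As a percentage of the sum, Csf1r was 7.02 ± 0.47 on d6, 7.09 ± 1.36 on d10, 8.36 ± 0.58 on d14, 7.67 ± 1.08 in treated d10 and 10.5 ± 1.1 in treated d14 tumors. The lowest treated d14 library, at 9.69%, exceeded the highest untreated d14 library, at 8.88%. For Csf2ra the means were 1.31% and 1.56%, for Csf2rb 4.64% and 5.44% and for Cxcr4 1.02% and 1.06% in untreated and treated d14 tumors, and these ranges overlap. On d6 Csf2rb was 2.77% to 3.23% and Cxcr4 0.584% to 0.698% of the sum, below their untreated d14 ranges of 4.36% to 5.05% and 0.878% to 1.10%. Other leukocyte markers moved too, with all 6 T cell markers higher in treated d14 tumors, at sums of 196 to 219 CPM, beside 17.7% of all genes. Mesothelial markers summed to 1824 to 2060 CPM in treated and 2751 to 2855 CPM in untreated d14 tumors, without overlap, and of these 7 markers 2 rose and 3 fell, beside 17.7% and 14.8% of all genes. The 2 of 7 is close to the share of all genes. The part of cell numbers in the receptor results was not tested.

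**Figure D4:**
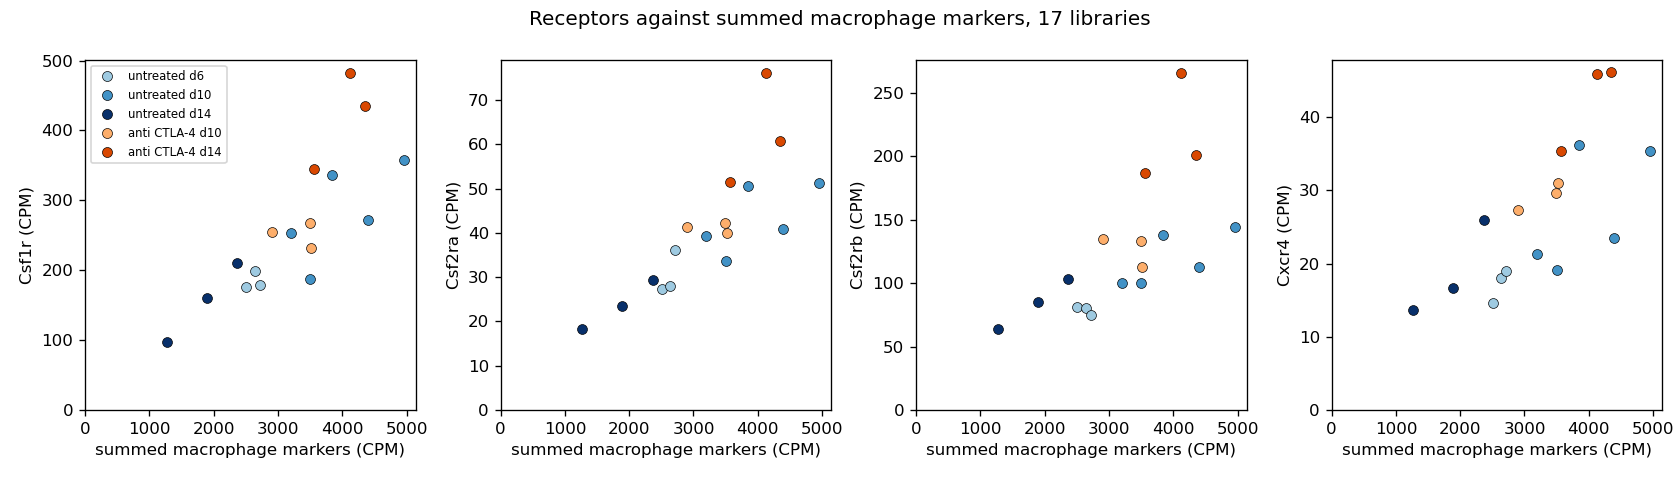
Normalized CPM of Csf1r, Csf2ra, Csf2rb and Cxcr4 (vertical axes) against the summed CPM of 10 macrophage markers (horizontal axes), 1 point per library, coloured by group. Levels climb with the marker sum, and the treated d14 points with Csf2rb of 187 to 266 CPM lie above untreated d10 points with similar sums.

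Cxcl12 moved with stromal markers in part. Of 8 fibroblast markers, 7 rose in treated against untreated d14 tumors, and of 6 endothelial markers 3 rose, beside 17.7% of all genes. None of these 14 markers fell, beside 14.8%. From d6 to d10 without treatment, 2 fibroblast and 1 endothelial markers were higher, beside 10.5% of all genes. From d6 to d14 without treatment they were 1 and 4, with 1 fibroblast marker lower, beside 25.5% higher and 26.0% lower. In treated tumors from d10 to d14, 7 fibroblast and 6 endothelial markers were higher, beside 23.3%. As a percentage of the summed fibroblast markers Cxcl12 was 0.895 ± 0.256 on d6, 2.36 ± 0.64 on d10, 2.60 ± 0.52 on d14, 1.88 ± 0.19 in treated d10 and 2.88 ± 0.51 in treated d14 tumors. The d6 libraries, at 0.667% to 1.17%, lay below all later ones, whereas the ranges of untreated and treated d14 tumors overlap. Over 17 libraries the r of Cxcl12 was 0.66 with the fibroblast sum and 0.89 with the endothelial sum. The part of stromal cell numbers was not tested.

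**Figure D5:**
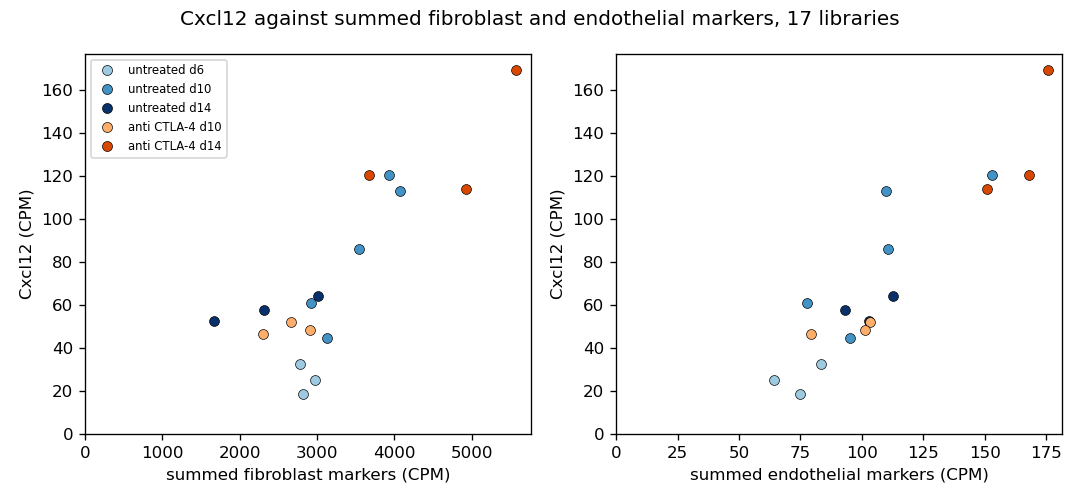
Normalized CPM of Cxcl12 (vertical axes) against the summed CPM of 8 fibroblast (left) and 6 endothelial (right) markers, 1 point per library, coloured by group. The d6 libraries hold 18.8 to 32.6 CPM of Cxcl12 at fibroblast sums near those of later libraries.

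Pancreas RNA was present in treated d14 replicates 1 and 3 and close to absent in replicate 2. That replicate had the highest Csf1r, Csf2ra, Csf2rb and Cxcl12 of all libraries, at 482, 76.2, 266 and 169 CPM. With replicate 2 as the only treated d14 library, a choice made after seeing the data, the log2 differences from untreated d14 tumors were 1.70 for Csf1r, 1.76 for Csf2ra, 1.74 for Csf2rb, 1.62 for Cxcl12 and 1.37 for Cxcr4. With a lone library, assumed to vary like the untreated group, edgeR called 0 members and 2 genes in all (adjusted p of these members 0.073 to 0.11), and the interaction still passed for Csf1r, Csf2ra, Csf2rb and Cxcl12.

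Genes around these signals were read from 4 lists. Of 13 tested myeloid transcription factors, 9 rose and 2 fell in treated against untreated d14 tumors, beside 17.7% and 14.8% of all genes. Spi1, which encodes PU.1, a factor that binds the Csf1r gene in macrophages, rose by 1.25 ± 0.23 (log2, adjusted p = 0.0090). Egr1, an immediate early gene, fell by 0.40 ± 0.07 (adjusted p = 0.0066). In untreated tumors from d10 to d14 the list gave 1 higher and 5 lower, beside 9.80% and 9.87% of all genes. Among the latter was Spi1, which fell by 1.23 ± 0.24 (adjusted p = 0.011).

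Of 16 genes of JAK-STAT and adaptor signaling, 7 rose and 1 fell with treatment on d14, beside the same 17.7% and 14.8%, with a list median of 0.31 beside -0.0043 over all genes. The negative regulators Cish, a STAT5 target, and Socs3, a STAT3 target, rose by 0.93 ± 0.12 (adjusted p = 0.0050) and 0.70 ± 0.09 (adjusted p = 0.0049). Their relatives Socs1 and Socs2 did not pass, at 0.52 ± 0.25 and -0.009 ± 0.11. Shc1, an adaptor, fell by 0.23 ± 0.07 (adjusted p = 0.032). Among 14 tested receptors and co-receptors 5 rose and 1 fell, with Tyrobp, the adaptor of many myeloid receptors, higher by 0.96 ± 0.18 (adjusted p = 0.0098). Of 6 tested cytokines 2 rose, Il6 by 1.10 ± 0.29 (adjusted p = 0.024) and Cxcl14 by 0.65 ± 0.16 (adjusted p = 0.018). These counts of 5 of 14 and 2 of 6 stand beside 17.7% of all genes, and 2 of 6 is close to that share. On d10 the 4 lists held 0 calls between treated and untreated tumors.

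By the likeness of log2 CPM over the 17 libraries, among 10631 protein coding genes with a mean of at least 5 CPM, Csf1r was nearest to Ralgds (r = 0.98), Dpp7 (r = 0.98) and Syk (r = 0.98), the last a tyrosine kinase of myeloid receptors. Csf2ra was nearest to Pced1b, Vav1 and Gpr132 (r = 0.97 each), and Csf2rb to its paralog Csf2rb2 (r = 0.99), Dapk1 (r = 0.98) and Arrdc4 (r = 0.96). Cxcr4 was nearest to Scarf1 (r = 0.97), Cyth4 (r = 0.96) and Dok3 (r = 0.96). Cxcl12 was nearest to the fibroblast genes Mmp2 (r = 0.95) and Pdgfra (r = 0.94) and to Rbms3 (r = 0.93). Il34 was nearest to Smim7 (r = 0.98), Shc1 (r = 0.97) and Med22 (r = 0.96), Kitl to Atl3 (r = 0.94), Prune2 (r = 0.93) and Hipk3 (r = 0.93), and Csf1 to N4bp1 (r = 0.93), Tpst1 (r = 0.92) and Gm5431 (r = 0.90). Csf2 was nearest to Car4 (r = 0.90), Enpep (r = 0.89) and Basp1 (r = 0.88), and Csf3 had the weakest best match, Csrnp1 (r = 0.76).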

How the data were processed

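RNA was extracted from AB12 tumors and sequenced as paired ends. The authors aligned reads to GRCm38/mm10 with TopHat2 2.0.14, kept uniquely mapped reads and counted them per gene with HTSeq, and the deposited table holds raw counts. Counts of the compared groups were filtered with filterByExpr, scaled by TMM and tested with edgeR 4.0.16 (quasi-likelihood, R 4.3.3), with p-values adjusted by Benjamini-Hochberg over all genes and a threshold of 0.05. CPM use TMM factors over all 17 libraries, and values per kilobase divide by the summed exon length of Gencode vM21. Likeness is Pearson's r of log2(CPM + 0.5), and the 3 nearest genes were named. All 10 members were described in every comparison, and examples from the lists were picked with their values known. The members and lists were chosen with earlier results of these data known. Alternatives were DESeq2 1.42.0, library size without TMM, no filter, a joint fit, a fold above 2, a replicate block and leaving out libraries. Scripts were tested on simulated data. Where replicates do not come from separate mice, p-values measure only the spread between these samples.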

Additional observations from a re-analysis of the deposited data

Results flagged for a closer look

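For 6 members the effect of anti CTLA-4 differed between d14 and d10 by the test of the interaction (edgeR quasi-likelihood, Benjamini-Hochberg adjusted), 5 with a positive and 1 with a negative value, beside 11.9% and 5.85% of the 18574 genes tested. The log2 difference of effects was 1.65 for Csf1r, 1.53 for Csf2ra, 1.33 for Csf2rb, 2.05 for Cxcl12, 1.12 for Cxcr4 and -0.50 for Kitl. With untreated d10 replicates 1 to 3 only, or with replicates 4 and 5 only, all 6 passed again. Over 22 alternatives Cxcr4 no longer passed in 9 and Kitl in 7, with adjusted p up to 0.12 for each. Markers of several cell types passed in the same interaction with a positive value. They were 7 of 10 for macrophages, 5 of 6 for T cells, 7 of 8 for fibroblasts, 4 of 5 for B cells and 4 of 4 tested for adipocytes. In these lists 0 had a negative call. Of 6 endothelial markers 1 was positive, and of 7 mesothelial markers 3 were positive and 1 negative in the interaction. A positive interaction is not a rise on d14. There, 0 of 5 B cell and 1 of 4 adipocyte markers were higher with treatment, beside 17.7% of all genes. Of the B cell markers 1 was lower, beside 14.8%. On d10 the median log2 fold changes of the B cell and adipocyte lists were -3.1 and -1.34, with 0 calls. The part of these cells was not tested.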

How the results depend on the processing

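Of 70 member results 32 passed, and over 460 alternative values of these 0 changed sign and 84 no longer passed. Over the other results 43 alternative values passed and 38 changed sign. Without TMM the log2 differences of the members between treated d14 and d10 tumors shifted by a median of 0.12, and Kitl there became 0.085. For d10 against d6, 4 members passed, 7 with DESeq2, 1 with a fold above 2 and 1 to 5 with a library left out. With untreated d10 replicates 4 and 5 only, 8 passed, Csf2 and Il34 among them. For d14 against d10, 3 passed, 0 with a fold above 2, 5 with replicates 1 to 3 only and 0 to 3 with a library left out (0 without untreated d14 replicate 2). For d14 against d6, 2 passed with a fold above 2. For treated d14 against d10, 4 passed in the joint fit and 1 with a fold above 2. For treated against untreated d10, 3 passed with replicates 1 to 3 only, Csf2 and Il34 among them. The division into replicates 1 to 3 and replicates 4 and 5 falls where Csf2 and Il34 separate. Counts within it are therefore no test of these 2 genes. With treated d14 replicate 2 alone, chosen after seeing the data, 0 passed against untreated d14. The cause of these changes was not tested, except that leaving out libraries leaves fewer samples.

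Replicate numbers did not pair the samples, since correlations of deviations between groups ran from -0.32 to 0.19. With the replicate block, 3 members passed for treated against untreated d10, the same ones as with replicates 1 to 3 only. Untreated d10 replicates 4 and 5 have no treated d10 library of their number. The block therefore also takes them out of this comparison, and it is not a separate result. Counts elsewhere stayed within 1.5 times. Csf2 in d10 against d6 became 0.32 with the block and 0.34 with replicates 1 to 3 only. Csf3 in the interaction became -0.32 with the block, -0.37 with replicates 1 to 3 only and -0.17 with treated d14 replicate 2 alone, which also gave -0.13 for treated d14 against d10. With replicates 4 and 5 only, Csf3 became 0.16 in d10 against d6, -0.43 in d14 against d10 and -0.19 in treated against untreated d10. Csf2 then became 0.15 and 0.45, and Il34 -0.10 and -0.063, in the last 2 of these.

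With a library left out, values not past the test crossed 0 as follows. Csf2 ran from -0.36 to 0.10 and Csf3 from -0.68 to 0.18 in d10 against d6. Csf3 ran from -0.41 to 0.40 in d14 against d10. In d14 against d6, Csf3 ran from -0.69 to 0.20, Csf1r from -0.49 to 0.011, Csf2rb from -0.061 to 0.26 and Cxcr4 from -0.16 to 0.31. In treated against untreated d10, Csf2ra ran from -0.14 to 0.0048 and Csf1 from -0.010 to 0.071. Csf3 ran from -0.0061 to 0.79 on d14, and in treated d14 against d10 from -0.071 to 0.16, where Kitl ran from -0.11 to 0.060. Csf3 ran from -0.34 to 0.49 in the interaction. Csf3 had 13 to 100 counts per library, and how far depth limits it was not tested.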
